A study of Drosophila melanogaster with 3 samples.

Results

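The Toll receptors are a small family of cell-surface proteins with leucine-rich repeats outside the cell and, inside it, a TIR domain that passes the signal on. Tl, the founding member, is activated by the ligand Spätzle and signals through Myd88, tub and pll to the NF-kappaB proteins dl and Dif, which sets up the dorsoventral axis of the embryo and, later in life, the antifungal response. 18w, Toll-6 and Tollo are made in overlapping stripes along the body axis and are needed for germ-band extension, in which the epidermis lengthens by cell intercalation. Toll-6 and Toll-7 also act in the nervous system as receptors for neurotrophin-like Spätzle proteins. Less is known of the embryonic roles of Toll-4, Tehao and Toll-9.

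Binding of the transcription factor Deaf1 around these genes was described from chromatin immunoprecipitation followed by sequencing (ChIP-seq). The 8 receptor genes Tl, 18w, Toll-4, Tehao, Toll-6, Toll-7, Tollo and Toll-9 were taken by name from the Ensembl annotation, out of 13945 protein-coding genes on the 6 chromosome arms that carry peaks. Each library came from whole Drosophila melanogaster embryos, 0 to 24 hours old and of both sexes, of a transgenic line that stably expresses Deaf1 fused at its C terminus to GFP, and anti-GFP antibody was used for the precipitation. There were 3 biological replicates of this 1 group and no second condition, and a whole-embryo sample cannot say in which cells a site was bound. The labels used here do not name the promoter that drives the fusion protein. Each replicate list and the list called on the pooled reads held exactly 30000 peaks, so their weaker entries are relaxed calls, and the reproducible set derived from them by the irreproducible discovery rate (IDR) held 8667 summits. The number of reads behind the lists is unknown. All summits in the gene body or within 10 kb on either side of it were counted for a gene. Tl, 18w, Toll-6 and Tollo, called patterning receptors here, were set beside the other receptors Toll-4, Tehao, Toll-7 and Toll-9.

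Tagged Deaf1 had a reproducible summit within 500 bp of a start site at 5 of the 8 receptor genes (62.5%). The share over all protein-coding genes was 27.8%, and the difference was not tested. Toll-6 had the strongest of these summits, and the sequence just upstream of Toll-6 was rich in the Deaf1 core word. The 100 bases before the annotated transcription start site (TSS) are shown for the 6 receptor genes on arms 2L, 3L and 3R, with 3 genes that had a reproducible promoter summit (Toll-6, Tl and Tollo) and the 3 that had none (Toll-4, Tehao and Toll-9). The stretches of 18w and Toll-7, which also had such a summit, are given by their word counts alone. They were read from the RefSeq copy of the dm6 assembly in the direction of the gene (for Toll-9 from the more upstream of its 2 start sites), and capitals mark TTCG on either strand (CGAA where it lies on the other strand).
Toll-6, chr3L:15336592-15336691, plus strand: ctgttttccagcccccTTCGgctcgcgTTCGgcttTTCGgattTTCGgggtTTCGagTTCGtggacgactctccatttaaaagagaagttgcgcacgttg
Tl, chr3R:26798941-26799040, plus strand: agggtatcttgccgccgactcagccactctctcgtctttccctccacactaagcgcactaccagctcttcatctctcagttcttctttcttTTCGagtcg
Tollo, chr3L:15235519-15235618, plus strand: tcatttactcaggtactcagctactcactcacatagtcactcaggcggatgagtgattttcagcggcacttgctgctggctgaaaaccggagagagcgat
Toll-4, chr2L:9084007-9084106, plus strand: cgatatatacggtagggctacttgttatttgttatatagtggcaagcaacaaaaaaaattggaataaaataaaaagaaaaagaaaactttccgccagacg
Tehao, chr2L:13435522-13435621, plus strand: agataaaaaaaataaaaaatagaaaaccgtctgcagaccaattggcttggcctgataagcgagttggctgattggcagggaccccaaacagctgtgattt
Toll-9, chr3L:20366725-20366824, minus strand: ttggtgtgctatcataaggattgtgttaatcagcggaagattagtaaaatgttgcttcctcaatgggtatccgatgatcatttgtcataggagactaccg
The Toll-6 stretch held 6 copies of TTCG, all on the strand of the gene, which began 84, 73, 65, 57, 49 and 43 bp before the TSS, and 4 of them ran on as the longer word TTCGG. Across the 19253 distinct start sites of protein-coding genes, 0.322% had 6 or more TTCG in this window and 0.0883% had 4 or more TTCGG. Tl had 1 TTCG, 9 bp before its TSS, and Tollo, Toll-4, Tehao and Toll-9 had 0. Toll-7 had 2 TTCG and 0 TTCGG, and 18w, although bound at its promoter, had 0 of both. TTCG was thus in the window of 3 of the 8 receptors (37.5%), below the 58.3% of all start sites, and TTCGG in 1 of 8 (12.5%), against 17.2%. The GAGA factor word GAGAG was counted on both strands, here and below with overlapping copies included. It stood 3 times before Tl, 2 times before Tollo and 1 time before Toll-6. The 2 copies of Tollo overlapped, as did 2 of the 3 of Tl. That made 3 of 8 receptors (37.5%), against 15.3% of all start sites.

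Sequence under summits away from the start sites is shown for 4 places, 50 bp on each side of the summit, because the number of TTCG copies ran from 4 to 0 among them. The first lies 1262 bp upstream of Tollo and the next beyond its 3′ end, at +14092 when counted from its TSS. The other two belong to Toll-6, at -6993 and at +11492. Capitals again mark TTCG on either strand.
Tollo, chr3L:15234307-15234407, plus strand: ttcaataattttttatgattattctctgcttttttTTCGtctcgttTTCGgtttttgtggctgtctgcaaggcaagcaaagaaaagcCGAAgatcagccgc
Tollo, chr3L:15249661-15249761, plus strand: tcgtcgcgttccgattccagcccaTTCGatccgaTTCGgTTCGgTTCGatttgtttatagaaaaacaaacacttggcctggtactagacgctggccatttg
Toll-6, chr3L:15329649-15329749, plus strand: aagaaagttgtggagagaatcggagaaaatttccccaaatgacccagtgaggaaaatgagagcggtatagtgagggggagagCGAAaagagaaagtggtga
Toll-6, chr3L:15348134-15348234, plus strand: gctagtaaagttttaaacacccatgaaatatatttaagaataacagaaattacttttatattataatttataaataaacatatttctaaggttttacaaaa
The window at -1262 of Tollo held 3 TTCG and 2 TTCGG, and the one at +14092 held 4 and 2. The window at -6993 of Toll-6 held 1 TTCG and 3 GAGAG. The window at +11492 of Toll-6 held 0 of either word, and only 17.8% of its bases were G or C.

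Counted over their windows, the 8 genes held 17 of the 8667 IDR summits, in 15 peak intervals. All 17 had a receptor gene as the protein-coding gene with the nearest TSS. In the IDR set, 5 of the 8 genes (62.5%) had at least 1 summit in the window, against 71.5% of all protein-coding genes. The same 5 genes had a summit within 500 bp of a TSS, again 62.5%, against 27.8% of all protein-coding genes. In the longer pooled list 6 of the 8 (75%) had a summit in the window, against 80.5% of all protein-coding genes. Presence of a peak somewhere in these windows was thus not above the level of genes in general, and the promoter count was the one that stood higher. The receptors were named for study with earlier results of these data known, so none of these shares was tested.

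**Figure D1:**
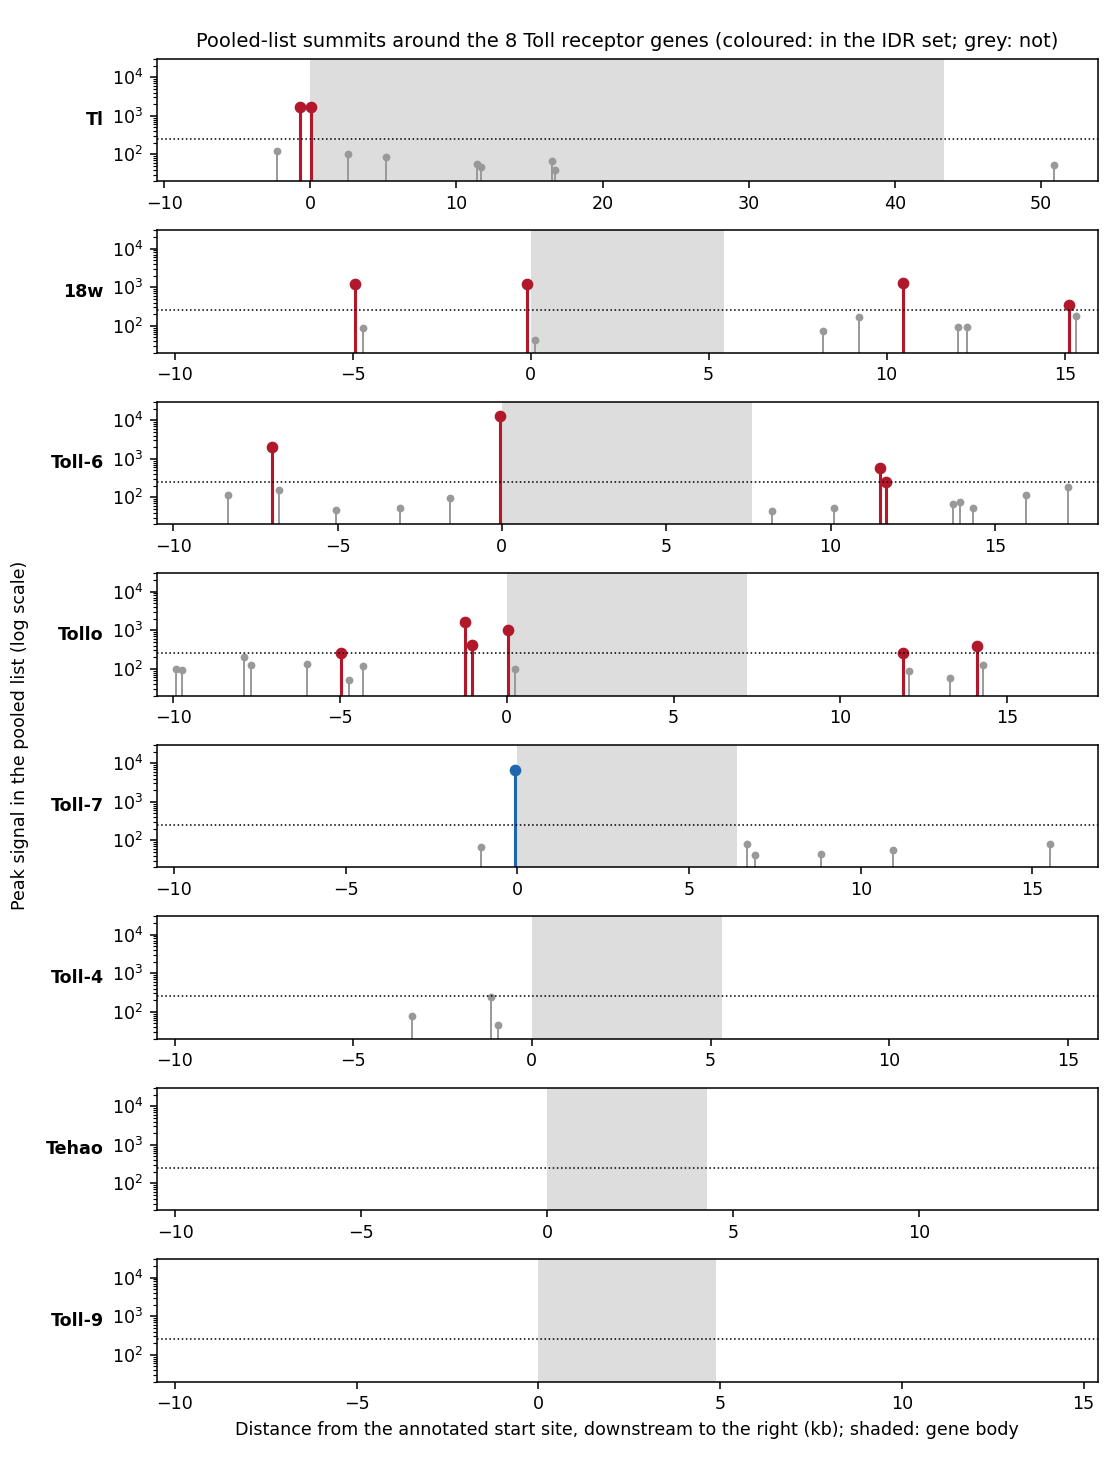
Summits of the pooled list around each receptor gene, with distance from the annotated start site (kb) on the horizontal axis and peak signal (log scale) on the vertical axis; the shaded box is the gene body, coloured points belong to the IDR set (red for patterning receptors, blue for Toll-7), grey points do not, and the dotted line is the lowest IDR signal, 256.1. The promoter summits of Toll-6 at 13149.5 and Toll-7 at 6805 stand above the rest, gene bodies are nearly empty of coloured points, and Tehao and Toll-9 have 0 points.

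Toll-6 (FBgn0036494; chr3L:15336692-15344315, plus strand, a single exon in each of its 3 transcripts) carried the strongest receptor promoter. Its summit lay 60 bp upstream of the TSS with an IDR signal of 13149.5, rank 83 of 8667. Signals in the replicate lists are given as multiples of the median of the same list, because the deposited values are not scaled between lists. The Toll-6 promoter had 87.3, 86.7 and 93.9 times the median in replicates 1, 2 and 3 (89.3 ± 3.96, SD, n = 3), so the 3 replicates lay close together. Among the 3878 genes with an IDR promoter summit it ranked 71, and 98.2% of them were weaker. In the 3 replicate lists its promoter ranked 73 of 5812 genes, 86 of 5863 and 59 of 5675. The 101 bp centred on this summit held 7 TTCG and 4 TTCGG, and 0.669% and 0.865% of all IDR summits had as many or more. Most of this stretch is the one printed above, so the 6 TTCG and 4 TTCGG described there are counted again here. A further summit 6993 bp upstream had an IDR signal of 1971 and 12.5, 10.3 and 18.5 times the list median (13.8 ± 4.23, SD, n = 3). It lay in intergenic sequence, 2547 bp from the start of the long non-coding RNA gene lncRNA:CR43247. Downstream of the gene a single interval held summits at +11492 and +11695, with IDR signals of 587.5 and 256.3. The second of these stood just inside the IDR set, whose lowest signal was 256.1. Replicate 3 had no peak over the first, but had one beside it, with its summit at +11615 and 4.17 times the list median. Replicate 2 had a single summit there, at +11549, and its 4.30 times the median was counted for both IDR summits.

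Toll-7 (FBgn0034476; chr2R:19826578-19832973, plus strand, 1 exon) had a single IDR summit, but the second strongest promoter of the family. This summit was 74 bp upstream of the TSS with an IDR signal of 6805, rank 278. The replicates gave 45.0, 46.0 and 48.2 times the list median (46.4 ± 1.62, SD, n = 3). These values were below those of Toll-6 and above every value of Tl, 18w and Tollo in each replicate. Of the bound genes 94.4% had a weaker promoter. The window held 2 TTCG, 0 TTCGG and 1 GAGAG. The other 6 summits of the pooled list in its window were outside the IDR set.

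Tl (FBgn0262473; chr3R:26799041-26842403, plus strand, 4 or 5 exons) had its IDR summits at the start of the gene alone. They lay 713 bp upstream of the TSS and 27 bp downstream of it, in the first exon, with nearly equal IDR signals of 1696 and 1688. The upstream summit had 11.9, 9.65 and 13.4 times the list median (11.7 ± 1.88, SD, n = 3) and the one at the TSS 9.43, 13.4 and 11.5 (11.5 ± 1.99, SD, n = 3). The order of the pair changed from replicate to replicate, and their difference was smaller than either SD. The introns of Tl, which make up most of its 43363 bp, held 6 summits of the pooled list, with signals from 40.1 to 104.9, and 0 of these 6 were in the IDR set.

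18w (FBgn0287775; chr2R:20111511-20116932, plus strand, 1 exon) had 4 IDR summits, of which 3 were of about equal strength. The promoter summit at -93 had an IDR signal of 1195 and 7.80, 9.73 and 6.52 times the list median (8.01 ± 1.62, SD, n = 3). The summit at -4922 had 5.49, 10.1 and 8.72 (8.11 ± 2.38, SD, n = 3), and the one at +10446, past the end of the gene, had 8.14, 10.6 and 7.42 (8.71 ± 1.65, SD, n = 3). The means of these 3 summits differed by less than any of their SDs, but the summit at +10446 was above the promoter summit in each replicate. All were highest in replicate 2. The fourth, at +15127, was weaker, with 0.915, 2.92 and 3.37 times the median (2.40 ± 1.31, SD, n = 3). Its low value in replicate 1 is that of the nearest summit, and a second peak of that replicate over the same place had 1.56 times the median. The promoter window held 0 TTCG at 63.4% G and C, and the window at +10446 held 0 TTCG at 20.8%. The window at -4922 held 1 TTCG and 4 GAGAG, the most GAGAG of the 17.

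Tollo (FBgn0029114; chr3L:15235619-15242832, plus strand, 1 exon) had the most IDR summits, 6, and its strongest was not at the TSS. The summit at -1262, in the stretch printed above, had an IDR signal of 1607 and 10.7, 9.74 and 12.6 times the list median (11.01 ± 1.48, SD, n = 3). The summit at the start site, at +20, had a signal of 1008 and 6.32, 5.97 and 8.77 (7.02 ± 1.53, SD, n = 3). The upstream summit was the higher in each of the 3 replicates. The same interval held another summit at -1060, whose values of 3.87, 1.07 and 3.46 set replicate 2 apart (2.80 ± 1.51, SD, n = 3). The 3 summits at -4990, +11867 and +14092 were weak, with means of 1.74, 1.82 and 2.71 times the median. Those at -4990 and +11867 had IDR signals of 259.4 and 264.2, close to the lowest of the set, 256.1. Among the IDR summits with a signal above the median, 18w and Toll-6 had 3 each and Tollo had 2. With all 6 summits the Tollo window exceeded 91.0% of all protein-coding genes, and with 2.20 summits per 10 kb it exceeded 91.8%. 18w and Toll-6, with 4 each, exceeded 77.3%, and Tl, with 2, exceeded 48.7%, at the median of 2 over all genes.

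**Figure D2:**
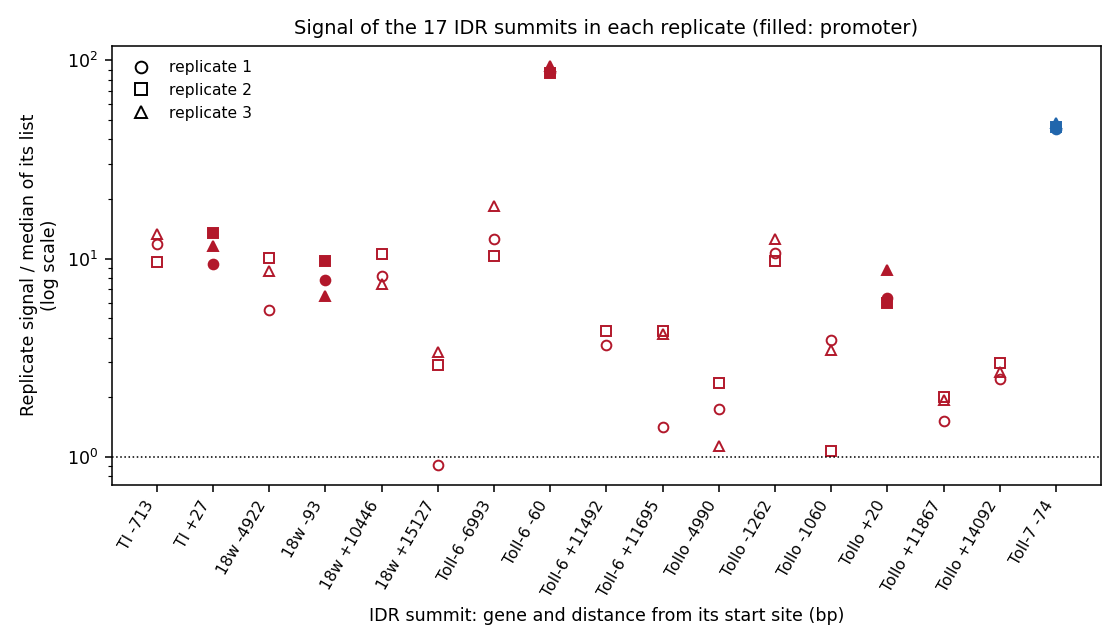
Signal of the 17 IDR summits in each replicate, as a multiple of the median signal of that replicate's list (log scale), by gene and distance from the start site in bp; red is for patterning receptors, blue for Toll-7, filled symbols are promoter summits, and the dotted line is 1, the list median. Toll-6 at -60 and Toll-7 at -74 lie far above the others with replicates close together, and 1 point, 18w at +15127 in replicate 1, falls below the line.

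Toll-4, Tehao and Toll-9 had 0 IDR summits. Toll-4 (FBgn0032095; chr2L:9084107-9089440, plus strand, 4 exons) had 3 summits in the pooled list, all upstream, and the highest, at -1148, had a signal of 240.9. That was below the lowest IDR signal of 256.1. Each replicate had a summit near this place, at -1189, -1147 and -1124, with 2.07, 1.35 and 1.58 times the list median. Toll-4 is annotated without a 5′ UTR, so that its TSS is the first base of its coding sequence and distances from it are less certain. Tehao (FBgn0026760; chr2L:13435622-13439930, plus strand, 2 exons) had 0 summits in the pooled list and in replicates 2 and 3. Its 1 summit in replicate 1 had 0.456 times the list median and lay nearest to the gene Hacd2. Toll-9 (FBgn0036978; chr3L:20361843-20366724, minus strand) had 0 summits in the pooled list and in replicate 1. Its 2 summits in replicate 2 and 3 in replicate 3 lay 9287 to 9964 bp upstream, and each was nearest to Ide or RhoBTB. The strongest, in replicate 2, had 4.14 times the list median, above the means of several IDR summits at Tollo and 18w, and the strongest in replicate 3 had 1.84. The Toll-9 window also held 10 start sites of other protein-coding genes, and the windows of Toll-4 and Tehao held 2 each, against 0 in the windows of the 5 genes with IDR summits. Whether the neighbouring genes bear on the lack of summits was not tested.

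Set side by side, the patterning receptors held 16 of the 17 IDR summits and the other receptors 1. Per gene, Tl, 18w, Toll-6 and Tollo had 2, 4, 4 and 6 (median 4), and Toll-4, Tehao, Toll-7 and Toll-9 had 0, 0, 1 and 0 (median 0), so the groups did not overlap. Per 10 kb of window the patterning group had 1.11 IDR summits and the others 0.0991, against 0.647 over the 6 arms as a whole. On this scale Tl, with the longest window of 63363 bp, fell to 0.316, below Toll-7 with 0.379, and the groups overlapped. With windows of only 2 kb on either side, 18w, Toll-6 and Toll-7 had 1 summit each and the groups overlapped as well. A promoter summit was present in 4 of 4 patterning receptors and 1 of 4 others, against 27.8% of all protein-coding genes. The 1 of 4 was near that level. By the strength of the promoter the groups also overlapped, since Toll-7 came second in each replicate, after Toll-6 and before Tl. The order of the last pair changed: 18w was above Tollo in replicates 1 and 2 and below it in replicate 3, and their means of 8.01 and 7.02 times the list median did not differ beyond their SDs. Genes are not replicates of a condition, and the difference between the groups was not tested.

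Counts in the longer, relaxed lists kept the groups apart in the pooled list and in replicate 1, but not in replicates 2 and 3. In the pooled list the patterning receptors had from 10 to 17 summits each and the others from 0 to 7. The patterning receptors had 49, 50 and 52 summits in replicates 1, 2 and 3 (50.3 ± 1.53, SD, n = 3), and the others had 9, 13 and 14 (12.0 ± 2.65, SD, n = 3). In replicate 1 the lowest patterning gene, 18w with 9, was above the highest other gene, which had 4. In replicate 2 Tl and Toll-7 both had 9. In replicate 3 Toll-7 with 8 passed 18w with 7. Lists cut to the 8667 strongest peaks of each replicate, as many as in the IDR set, left 14, 17 and 16 summits at the 8 genes. Promoter summits were at the same 5 genes in each replicate, and the share of all genes was not counted in these cut lists.

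**Figure D3:**
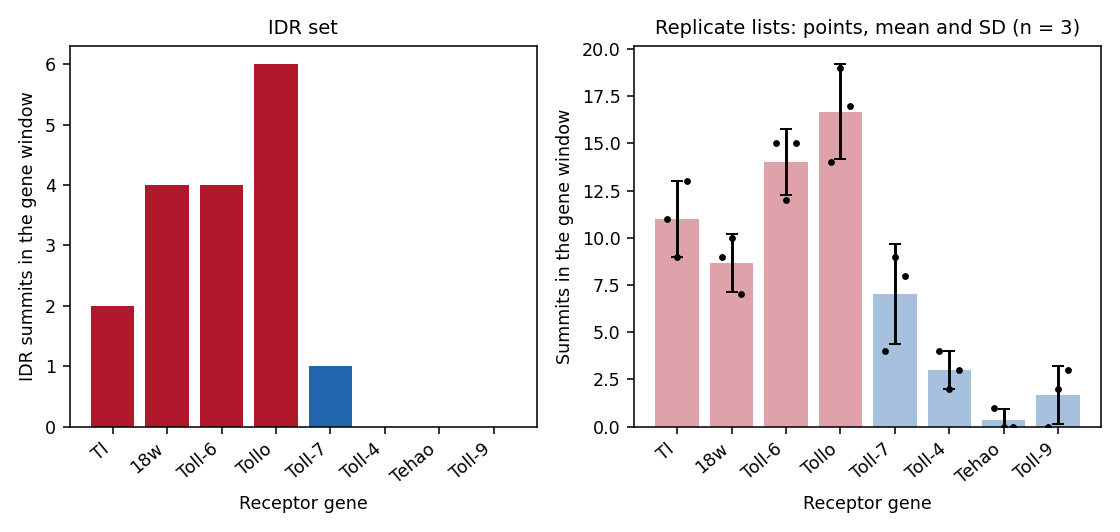
Number of summits in the window of each receptor gene (gene body and 10 kb on either side) in the IDR set, left, and in the 3 replicate lists, right, where points are replicates, bars are means and whiskers are SD (n = 3); red is for patterning receptors and blue for the others. IDR counts run from 2 to 6 at the red genes and from 0 to 1 at the blue ones, while in the replicate lists Toll-7 (7.00 ± 2.65) comes close to 18w (8.67 ± 1.53).

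Of the 17 IDR summits, 5 were at promoters, 6 lay farther upstream and 6 downstream of the gene's end. The promoter summits of Tl and Tollo, at +27 and +20, lay inside the gene. An intron summit was possible at Tl alone among the 5 genes, since the other 4 have 1 exon, and the places were not compared with those of all IDR summits. Across the set, 16 lay in a peak of each of the 3 replicates. The word TTCG stood no more than 50 bp from 14 receptor summits (82.4%), and the share over all IDR summits was 66.3%. TTCGG was at 5 (29.4%) against 28.9%, GAGAG at 7 (41.2%) against 22.1%, and the Zelda word CAGGTAG at 0 against 0.531%. Summits of 1 gene are not independent of each other and these shares were not tested. A word match describes the sequence and does not show that the word was bound.

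Of the 5 genes with promoter summits, 4 are alike in structure. 18w, Toll-6, Toll-7 and Tollo each consist of 1 exon, and their proteins, of 1346 to 1514 residues, are the longest of the family. Identity was taken over the aligned residues alone, which for some pairs were only part of the proteins (625 for 18w with Toll-9, of 1385 and 900 residues). The 6 pairs among them had from 38.6% to 61.9% identical residues, the highest being 18w with Toll-7. The 22 other pairs of the family had from 22.4% to 36.7%. All 4 were bound at the promoter. Of the 4 genes with several exons, Tl alone was bound, near the 27.8% of all protein-coding genes. Whether gene structure bears on binding was not tested. 18w and Toll-7, the closest pair in protein sequence, differed in signal, with 8.01 ± 1.62 against 46.4 ± 1.62 times the list median at their promoters (SD, n = 3), and in each replicate Toll-7 was the higher.

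Along the pathway of the receptors, promoter summits were counted in lists of ligands, proteases and signalling proteins, to be read against the 27.8% of all protein-coding genes. The ligands and the maternal proteases, with 1 of 6 each (16.7%), were short lists, and no difference from that level was drawn from them. Of 6 Spätzle ligand genes, spz, which encodes the ligand of Tl, alone had an IDR summit within 500 bp of a TSS. Its signal was 4.11 ± 0.970 times the list median (SD, n = 3), and NT1, spz3, spz4, spz5 and spz6 had none. Of the 6 genes for the maternal proteases and their partners that make active Spätzle, ea, the protease that cuts it, had one, at 7.81 ± 0.342 (SD, n = 3), and gd, snk, ndl, pip and wbl had none. Of 12 cytoplasmic signalling genes 8 were bound, 66.7% against 27.8%, a difference that was not tested. Dif, an NF-kappaB protein, was highest at 34.1 ± 3.20, followed by Sarm, a TIR-domain adaptor listed under its older name Ect4, at 9.33 ± 2.25, and Traf6 at 7.72 ± 3.32 (SD, n = 3). Next came cact, the inhibitor that holds the NF-kappaB proteins in the cytoplasm, at 6.70 ± 0.587 (SD, n = 3). Myd88, pll, Pli and Gprk2 were bound as well, and tub, dl, wek and krz were not. The summits counted for Traf6 and Gprk2 lay nearer to the TSS of another gene, and the other 16 of the 18 bound pathway genes had the nearest TSS themselves.

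The genes that act with the receptors in germ-band extension were divided. Ten-m, a teneurin, had a promoter summit at 39.9 ± 3.82 times the list median (SD, n = 3), against 46.4 at the Toll-7 promoter. The tyrosine kinase gene Src64B had 7.38 ± 0.725 and the pair-rule gene run 2.29 ± 0.249 (SD, n = 3). The pair-rule gene eve, the adhesion receptor gene Cirl and Src42A had no promoter summit, so 3 of 6 were bound (50%), against 27.8% of all protein-coding genes. With 6 genes, this list was also short, and no difference from that level was drawn from it. Of the 8 immune recognition and protease genes upstream of spz, 5 were bound (62.5%, against the same 27.8%), the serpin gene nec at 6.05 ± 0.566, modSP at 4.49 ± 0.454 and psh at 2.03 ± 0.407 (SD, n = 3), grass at 2.56 ± 0.0170 (SD, n = 2) and GNBP3. PGRP-SA, GNBP1 and SPE were not. The lists together had 18 of 38 genes bound (47.4%, against 27.8%). Like the receptors, neither the single lists nor all of them together were tested against other genes.

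**Figure D4:**
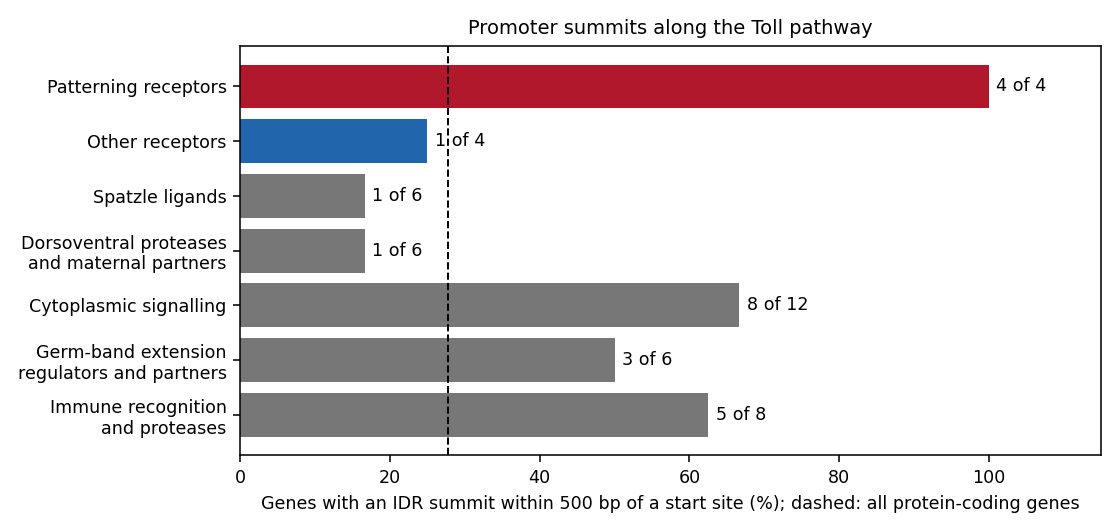
Percentage of genes with an IDR summit within 500 bp of a start site (horizontal axis) for both receptor groups and 5 lists of the Toll pathway, with counts beside the bars; the dashed line is the 27.8% of all protein-coding genes. The patterning receptors (4 of 4), the cytoplasmic signalling genes (8 of 12), the immune genes (5 of 8) and the germ-band extension genes (3 of 6) lie above the line. The other receptors (1 of 4), the Spätzle ligands and the dorsoventral proteases (1 of 6 each) lie below it.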

How the data were processed

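The authors deposited peak lists on dm6, made from the alignment of each replicate and from the pooled alignments, all against 1 control alignment, per the file headers; the IDR set derives from these lists. Aligner, caller and IDR threshold are not stated in the labels or headers. The deposited peak signal is not scaled between lists, so it was compared only inside a list or after division by the list median. The deposited −log10 q-values have a ceiling and were not used. Summits were computed from the deposited offsets.

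Genes came from Ensembl release 115. RefSeq coordinates were the same for 13932 of 13933 shared genes, all 8 receptors included. Python 3.11.15, pandas 2.3.3, numpy 2.4.6 and Biopython 1.88 were used (BLOSUM62 alignment with free end gaps, gap open 11, extend 1; the readthrough form of Tl left out). For an IDR summit, each replicate gave the signal of the closest summit among its peaks that cover the position. Counting was checked on planted summits. No test was run: there is 1 group, and genes are not replicates. The members and lists were chosen with earlier results of these data known. All 8 receptors are named, and of each pathway list at most 4 bound genes have values; 1 list name was matched through an older symbol. Alternatives changed the window, the TSS distance, the stringency, the replicates and the word window.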

Additional observations from a re-analysis of the deposited data

How the results depend on the processing

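No paired analysis was possible because there is 1 group of samples. Of 31 alternative settings for the main counts and signals, 22 stayed within 1.5 times or 1 SD of the value given. Across them 0 changed direction, but plain counts could not, nor could the signal difference while the median of the other receptors was 0. Limiting the counts to summits nearest to a receptor changed nothing, because all 17 were already nearest to one. The density per 10 kb was scored as moved against a count, which has another unit. The total of 17 IDR summits became 2 in gene bodies alone, 8 with 2 kb on either side and 11 among the IDR summits with a signal above the median. The excess of the patterning receptors over the others, 15 summits, became 2, 6 and 9 under these settings, and 1.01 per 10 kb of window. Counting Toll-7 with the patterning receptors gave 17. The replicate lists held 62.3 ± 4.04 summits at the receptors (SD, n = 3), from 60.5 to 64.5 as means without 1 replicate, and 15.7 ± 1.53 among the strongest 8667 peaks of each list. The difference in median strongest signal between the groups was 12.1 times the list median, and 11.6 to 12.5 without 1 replicate. Receptors with no IDR summit counted as 0 there, which set the median of the other receptors to 0. With the strongest replicate peak of each window, in the IDR set or not, a setting chosen after seeing the data, it was 10.2 ± 1.03 (SD, n = 3). The promoter count stayed at 5 within 250 bp, within 1000 bp, for the most upstream TSS and among the stronger IDR summits. The share of all protein-coding genes was not counted under these settings, so the unchanged count has no level to be read against. With 100 bp on each side of a summit, TTCG, TTCGG and GAGAG stood at 16, 7 and 9 of the 17. Counts of summits nearest to a receptor at any distance, added after the data were seen, gave 18, and an excess of 16. Depth is unknown, so a missing summit is one not detectable in these lists.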

Other observations

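MstProx, a further Toll family gene outside the 8 (chr3R:7365939-7369305), had 0 summits within its gene body and 10 kb on either side in the IDR set, in the pooled list and in each of the 3 replicate lists.

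Tollo and Toll-6 are neighbours on the same arm, with 93859 bp and 3 protein-coding genes between them. This interval held 9 IDR summits, or 0.959 per 10 kb, of which 5 lay outside the windows of both receptors and the strongest was the Toll-6 promoter summit itself. Toll-7 and 18w are separated by 278537 bp with 13 protein-coding genes. That interval held 8 IDR summits, or 0.287 per 10 kb, 6 of them outside the windows. The highest had a signal of 1257. These counts are a description and were not tested.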
